A study of Mus musculus with 2 samples.

Results

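The genes described are 57 members of the Wnt signalling pathway in the hindbrain of mouse embryos: 19 Wnt ligands, 2 genes that let ligands leave the cell, 12 receptors, 9 secreted inhibitors, 7 enhancers (R-spondins and their receptors) and 8 effectors inside the cell. They were chosen by gene symbol, with no cut on level but with earlier results of these data known. All 57 were found among the 43346 Ensembl genes of the tables. RNA longer than 200 nt was profiled in 2 libraries of embryonic day 12.5 (e12.5) hindbrain of the B6NCrl strain, each made from a separate embryo pool that mixed both sexes. Replicate 1 came from 120 embryos and replicate 2 from 88 embryos. The labels name no mutation and no treatment, so both libraries belong to 1 group and no contrast of conditions exists. Every p-value below compares 2 pools.

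Wnts are secreted, lipid-modified proteins that bind Frizzled receptors, with Lrp5 or Lrp6 as co-receptor for the branch that stabilises beta-catenin. Beta-catenin then enters the nucleus and works with the Tcf/Lef factors on target genes, while other Wnts act on cell polarity and movement without it. In the embryonic hindbrain, Wnt genes are known from the dorsal midline, from the border with the midbrain and from the ventricular zone, where they bear on dorsal identity and progenitor growth.

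The libraries held 31633169 and 29766460 expected counts (the authors' estimates of fragments per gene) over all entries. Added control RNAs (spike-ins) held 3.41% and 4.36% of these counts, and 8.39% and 10.9% of the summed TPM. Median TPM (a transcript level per length, scaled to a fixed total per library) of the 19209 genes with 10 or more summed counts was 10.7 in replicate 1 and 10.8 in replicate 2. Of 11 hindbrain markers, 10 reached 1 TPM in both libraries, and En2, at 0.54 and 0.70 TPM, did not. The 11 summed to 428 and 512 TPM, of which Meis1 gave 142 and 166 TPM. Of 8 forebrain markers, 4 reached 1 TPM in both libraries. The 8 summed to 36.8 and 38.5 TPM, of which Lhx2 gave 25.5 and 25.0 TPM. The pools also held RNA of tissue around the brain, with 10 mesenchyme and meninges markers summing to 1494 and 1909 TPM, and 8 skeletal muscle markers to 54.0 and 253 TPM. In such bulk RNA, fewer cells of a type and less RNA per cell cannot be told apart.

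Most of the pathway was expressed. A gene was called detected where each library gave it 1 TPM or more, and 47 of the 57 members met this (82.5%), beside 79.5% of all genes tested. The undetected members were mostly ligands: 12 of 19 ligands passed, against 11 of 12 receptors, 9 of 9 inhibitors, 5 of 7 enhancers, 8 of 8 effectors and both release genes. Of the class medians, the ligands were lowest in both libraries at 4.52 ± 0.70 TPM (SD, n = 2), followed by the enhancers at 6.08 ± 0.52. The effectors, at 24.1 ± 0.78, and the 2 release genes, at 62.9 ± 2.01, were highest in both. Inhibitors, at 11.3 ± 3.01 TPM, and receptors, at 12.6 ± 1.06 TPM, did not keep their order, since the median of the inhibitors was 9.21 TPM in replicate 1 and 13.5 TPM in replicate 2. On the log2(TPM + 1) scale, the ligand median minus the receptor median was -1.25 in replicate 1 and -1.35 in replicate 2. Against the effector median the difference was -2.07 and -2.27. These are medians of unlike genes, given as a description with no test.

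**Figure D1:**
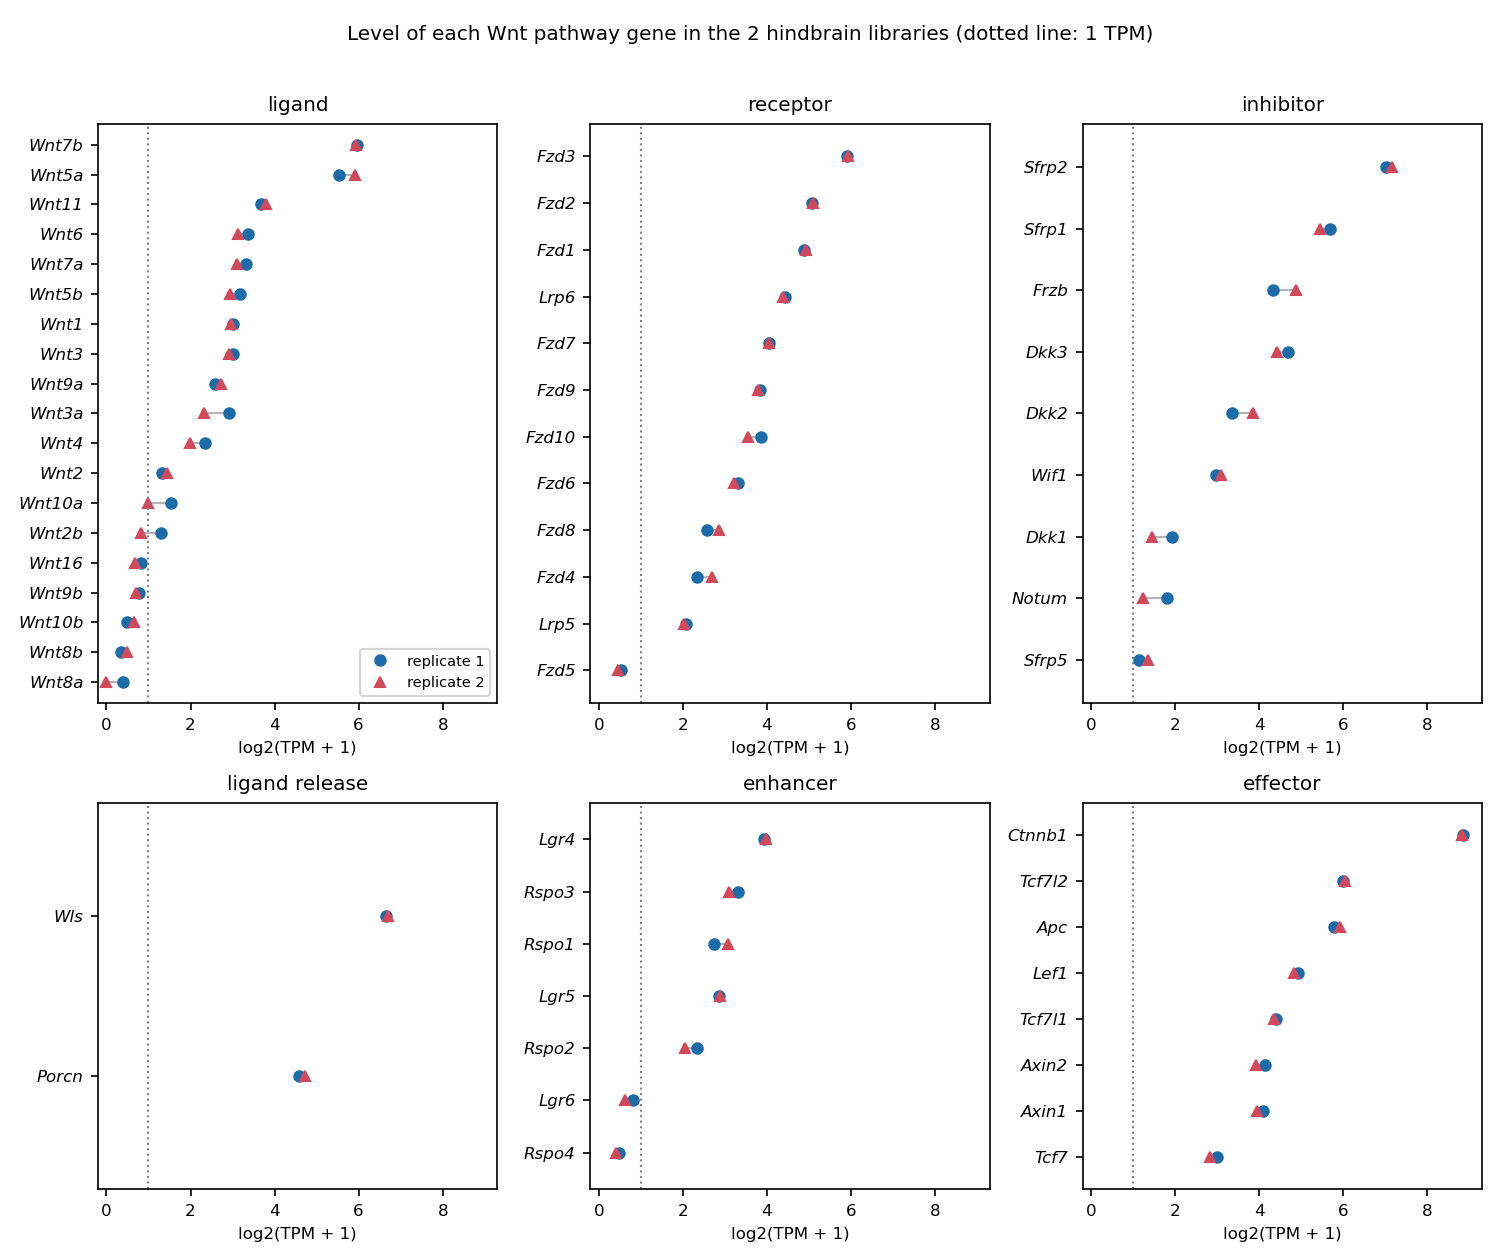
Level of each of the 57 genes, on the log2(TPM + 1) axis, in replicate 1 (circles) and replicate 2 (triangles), grouped by class, with the dotted line at 1 TPM. Of the ligands, Wnt7b and Wnt5a stand apart at 45.4 to 61.0 TPM, and 7 ligands fall to the left of the dotted line in at least 1 library.

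Ligand expression was dominated by a pair of genes of different known action. Wnt7b, a ligand known in the central nervous system for growth of blood vessels into the neural tube, lies on chromosome 15 (chr15:85535437-85582473, mm10) and measured 61.0 TPM in replicate 1 and 60.0 TPM in replicate 2. Wnt5a, the best known ligand of the polarity branch, lies on chromosome 14 (chr14:28504750-28527448) and measured 45.4 and 59.0 TPM. Together they held 58.6% of the summed ligand TPM in replicate 1 and 64.2% in replicate 2. Wnt7b was the higher of the pair in each library, by a small margin in replicate 2.

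The next ligand was several times lower. Wnt11, another ligand of the polarity branch, measured 11.7 and 12.9 TPM. Wnt6 measured 9.29 and 7.74 TPM, and Wnt7a, the close relative of Wnt7b, 8.98 and 7.57 TPM. Wnt5b, the relative of Wnt5a, measured 8.10 and 6.72 TPM. Wnt6 overlapped Wnt7a and Wnt7a overlapped Wnt5b, so the order of these 3 is not resolved.

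Wnt1 and Wnt3a, the ligands classically mapped to the dorsal midline and, for Wnt1, the border with the midbrain, were present at moderate level in the whole hindbrain. Wnt1 measured 7.03 and 6.77 TPM and Wnt3a 6.52 and 4.02 TPM, and Wnt3a was the lower of the 2 in each library. Wnt3 measured 7.12 and 6.49 TPM and Wnt9a 5.01 and 5.59 TPM. Of 18 pairs of neighbours in the order of ligand levels, 12 overlapped between libraries, all of them below Wnt11, where the order is not resolved for most ligands.

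The lowest ligands were near the limit of the depth. Wnt8a had 10 counts (0.32 TPM) in replicate 1 and 0 counts in replicate 2, where 3 counts would be 0.10 TPM. Wnt8b, which is known from the forebrain, measured 0.27 and 0.40 TPM. The remaining 7 ligands (Wnt4, Wnt2, Wnt10a, Wnt2b, Wnt16, Wnt9b and Wnt10b) had mean levels from 3.54 TPM down to 0.49 TPM, and Wnt4 and Wnt2 were the ones detected in both libraries.

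The machinery that loads and releases Wnts was abundant beside the ligands themselves. Wls, the carrier that takes Wnts to the cell surface (chr3:159839672-159938664), measured 100.1 and 103 TPM, above every ligand in both libraries. Porcn, the enzyme that attaches the lipid on which secretion depends, measured 22.9 and 25.6 TPM, below Wnt7b and Wnt5a and above the other ligands.

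Among receptors, Fzd3, the Frizzled known for axon guidance, led with 59.4 and 60.0 TPM. It was followed by Fzd2 at 32.6 and 33.0 TPM and Fzd1 at 28.6 and 29.3 TPM, and these 3 held 58.8% and 59.7% of the summed receptor TPM. Their values differed little between the libraries and their ranges did not overlap with one another. The co-receptors were unequal: Lrp6 measured 20.7 and 19.8 TPM and Lrp5 3.20 and 3.05 TPM.

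The middle Frizzleds were Fzd7 at 15.5 and 15.7 TPM, Fzd9 at 13.2 and 12.9 TPM and Fzd10 at 13.5 and 10.7 TPM. Fzd9 and Fzd10 overlapped, and so did Fzd8 and Fzd4 further down. Fzd6 measured 9.01 and 8.32 TPM and Fzd8 4.92 and 6.23 TPM. Fzd5, known from the eye and forebrain, was the only receptor below the detection level, at 0.45 and 0.38 TPM, and Fzd4, the Norrin receptor of blood vessels, averaged 4.75 TPM.

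The leading secreted inhibitor was above every ligand in both libraries. Sfrp2, which binds Wnts through a Frizzled-like domain, measured 129 and 142 TPM and alone held 52.6% and 54.9% of the summed inhibitor TPM. Its relatives Sfrp1, at 50.3 and 42.8 TPM, and Frzb, at 18.98 and 28.2 TPM, followed. Sfrp1 was lower and Frzb higher in replicate 2. The last of this family, Sfrp5, was the lowest inhibitor by the mean at 1.20 and 1.56 TPM, although Notum was below it in replicate 2.

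The Dickkopf genes, whose best known members block Lrp5 and Lrp6, were led by Dkk3, a divergent member, at 24.6 and 20.5 TPM. Dkk2 measured 9.21 and 13.5 TPM. Wif1, a secreted protein that binds Wnts directly, measured 6.87 and 7.49 TPM. Notum, an enzyme that removes the lipid from Wnts, was second lowest among inhibitors by the mean, at 2.51 and 1.36 TPM. Its range overlapped those of Dkk1 and Sfrp5.

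Enhancers were expressed at moderate to low level. The R-spondins raise Wnt response by removing the ligases that degrade Frizzleds, with Lgr4, Lgr5 and Lgr6 as their receptors. Lgr4 led at 14.2 and 14.8 TPM and Lgr5, itself a known target of the pathway, measured 6.26 and 6.44 TPM. Of the ligands of these receptors, Rspo3 measured 8.89 and 7.50 TPM and Rspo1 5.71 and 7.36 TPM. Rspo4 at 0.39 and 0.33 TPM and Lgr6 at 0.77 and 0.54 TPM were the lowest, and Rspo2 averaged 3.61 TPM.

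All 8 effectors were above 5 TPM in both libraries. Ctnnb1, the gene of beta-catenin, which also links cadherins to the cytoskeleton, was the highest member of the pathway at 463 and 456 TPM. The Tcf/Lef factors were graded, with Tcf7l2 at 62.4 and 64.6 TPM, Lef1 at 29.1 and 27.5 TPM, Tcf7l1 at 20.2 and 19.6 TPM and Tcf7 at 7.01 and 6.11 TPM. Their order was the same in both libraries and none of their ranges overlapped. In the complex that degrades beta-catenin, Apc measured 54.0 and 60.1 TPM and Axin1 15.95 and 14.3 TPM. Axin2, a scaffold whose gene is also a direct target of the pathway, measured 16.5 and 14.2 TPM and overlapped Axin1.

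The leading transcript of Tcf7, Tcf7l1 and Tcf7l2 was the same in both libraries, and that of Lef1 differed. Shares are the authors' deposited percent of each gene's expression, and the transcript structures come from GENCODE M21. Among 25 members that have several transcripts and reached 5 TPM in each library, Lef1 was the only one whose highest transcript differed, beside 7.56% of the 8395 such genes in all. Lef1-202 held 47.7% in replicate 1 and 35.4% in replicate 2, and Lef1-204 held 35.5% and 49.0%. Behind these shares stood 869 and 561 expected counts for Lef1-202, and 639 and 769 for Lef1-204. With 2 libraries and shares estimated from shared fragments, no test of this difference was made.

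The 2 leading Lef1 transcripts have 9 coding exons in common and differ only in the last one, so that they encode different ends of the protein. The ending exons are printed without the stop codon, on the plus strand of chromosome 3, with the end of Lef1-202 at chr3:131204933-131204964 and that of Lef1-204 at chr3:131223076-131223152. The last coding exon of Tcf7-201, on the minus strand at chr11:52253886-52253962, has the same length as that of Lef1-204 and is shown beside it. Tcf7-202 ends in the same exon. A last coding exon of 77 bases is also annotated for Tcf7l2-201, Tcf7l2-202 and Tcf7l2-212, which together held 8.53% and 10.1% of Tcf7l2. Their sequences were not compared. Capitals mark the bases that are the same in the Lef1-204 and Tcf7-201 exons at the same position, 43 of 77 bases (55.8%). The first sequence, which was not compared with another exon, is in lower case.
Lef1-202: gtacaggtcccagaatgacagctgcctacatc
Lef1-204: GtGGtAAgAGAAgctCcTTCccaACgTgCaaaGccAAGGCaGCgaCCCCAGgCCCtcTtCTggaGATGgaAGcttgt
Tcf7-201: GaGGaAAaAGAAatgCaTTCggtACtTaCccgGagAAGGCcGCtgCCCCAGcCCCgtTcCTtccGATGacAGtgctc

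Lef1-201, which held 8.65% and 9.28%, has an added coding exon of 84 bases at chr3:131191023-131191106, shown here because its use is the other coding difference between the measured Lef1 transcripts.
Lef1-201 added exon: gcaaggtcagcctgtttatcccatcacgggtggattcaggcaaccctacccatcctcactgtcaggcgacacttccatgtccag
The first coding exon of Lef1, of 207 bases, encodes the part that binds beta-catenin. Transcripts without it held 8.16% and 6.35% of the gene and were all retained-intron forms, while the annotated coding form that lacks it, Lef1-203, was listed at 0 counts in both libraries.

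The other 3 genes kept their leading transcript. Tcf7-201 held 78.9% and 78.6% of Tcf7, and its 2 transcripts have the same coding sequence of 909 bases, so this share bears on the untranslated parts only. Tcf7l1-201 held 87.6% and 85.3%, and Tcf7l1-202, which has 1 more coding exon of 42 bases, held 10.95% and 12.9%. Tcf7l2, with 22 transcripts, was the most divided: Tcf7l2-209 led with 33.6% and 30.8%, followed by the retained-intron form Tcf7l2-206 with 21.7% and 23.9%. Retained-intron forms together held 43.1% and 41.4% of Tcf7l2 by level, but 20.96% and 18.7% of its expected counts. The most abundant of them by level, Tcf7l2-206, is 1041 bases long, while Tcf7l2-207, of 2629 bases, held 6.53% and 4.10% by level. Tcf7l2-210, which ends in the longest last coding exon of 421 bases, held 8.75% and 11.3%. The deposited lengths of Tcf7l2-206 and Tcf7l2-210 differ from those in GENCODE M21, so the structure given for them is uncertain.

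**Figure D2:**
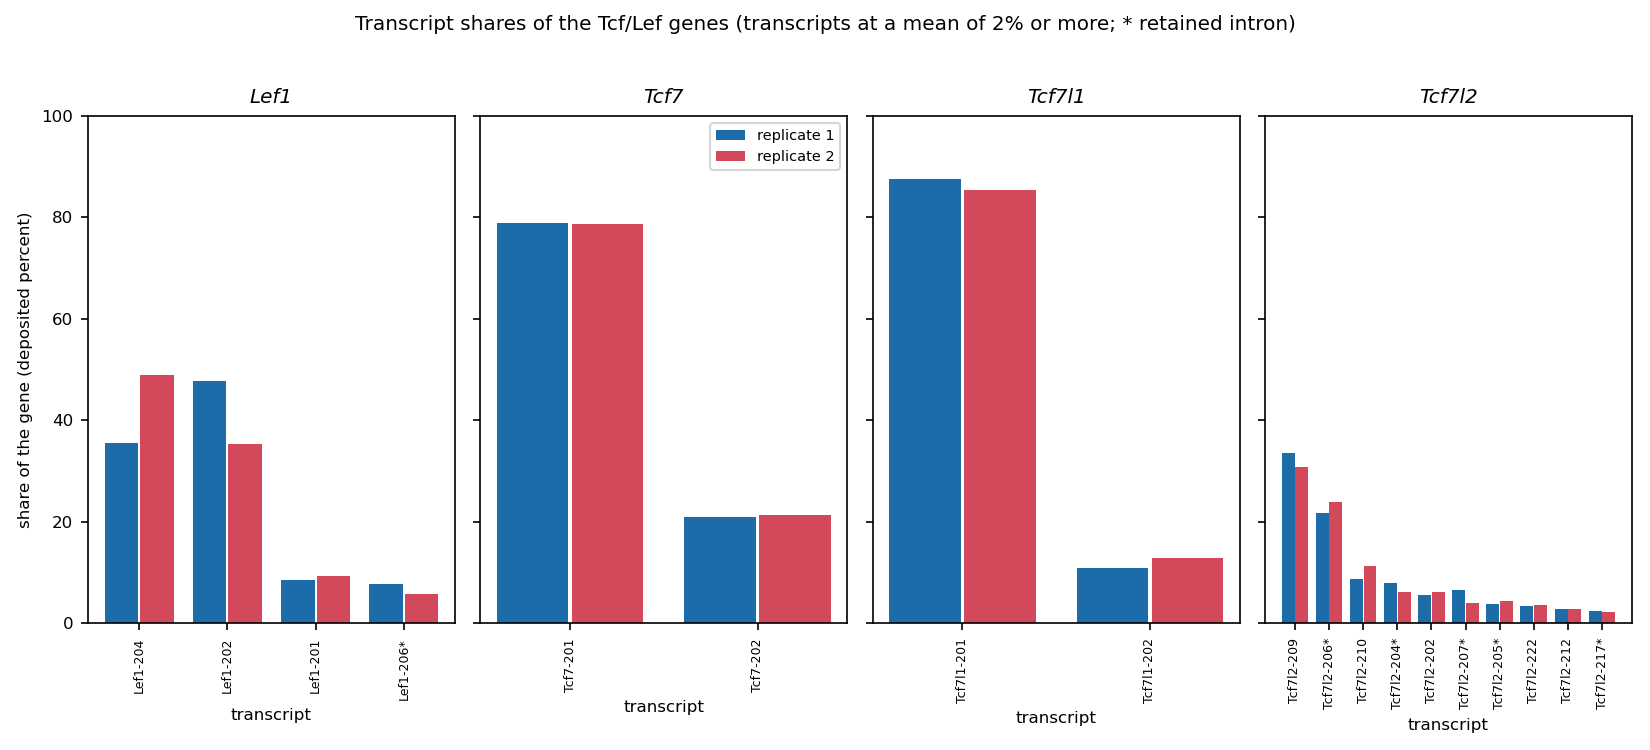
Share of each transcript in its gene (deposited percent, vertical axis from 0) for the transcripts at a mean of 2% or more, replicate 1 and replicate 2 side by side, with an asterisk on retained-intron forms. The order of Lef1-202 and Lef1-204 is opposite in the 2 libraries, 47.7% against 35.5% in replicate 1 and 35.4% against 49.0% in replicate 2.

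Beyond the Tcf/Lef genes, Wnt11 was the 1 ligand above 10 TPM whose leading transcript, Wnt11-202, is annotated as a target of nonsense-mediated decay. It held 45.3% and 45.1% of the gene. Wnt7b-201, a coding transcript, held 91.5% and 92.9% of Wnt7b, and Wnt5a-202, also coding, 42.8% and 43.5% of Wnt5a.

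The Wnt genes lie partly in old pairs along the chromosomes, and 4 pairs of ligands were within 100 kb of each other. On chromosome 15, Wnt1 (chr15:98789857-98793837) and Wnt10b (chr15:98770712-98778150) are 11.7 kb apart on opposite strands, and Wnt1 was 17.6-fold higher than Wnt10b in replicate 1 and 11.9-fold in replicate 2. On chromosome 11, Wnt3 and Wnt9b are 24.3 kb apart and differed 9.89-fold and 10.5-fold. Wnt6 and Wnt10a, on chromosome 1 and 6.19 kb apart on the same strand, differed 4.94-fold and 7.98-fold. In these 3 pairs the same gene was the higher in both libraries. The fourth pair, Wnt3a and Wnt9a, 16.2 kb apart on chromosome 11, had no steady order: Wnt9a was 0.77 times Wnt3a in replicate 1 and 1.39 times in replicate 2.

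Promoter windows of 300 bases (250 before to 50 after a gene's start, RefSeq, GRCm38.p6) were at hand for 38 of the 57 members, 47 windows in all. The Tcf/Lef motif CTTTGAA or CTTTGAT, searched on both strands, was found in 3 of the 38 (7.89%), beside 9.88% of the 27025 genes of the table, a share near that of genes at large. The 3 are shown with the motif in capitals, at chr6:119449442-119449466 for Wnt5b, chr7:98835052-98835076 for Wnt11, where the motif is on the other strand, and chr19:30549598-30549622 for Dkk1, a known target of the pathway.
Wnt5b: taagtctctCTTTGATctgctccct
Wnt11: cgtgggcggATCAAAGcgacggtcc
Dkk1: ctcccaaagCTTTGAAatcccatcc
The starts are those of RefSeq. By the GENCODE M21 coordinates, the sites of Wnt5b and Dkk1 lie within the span of the gene, and that of Wnt11 before it. A match describes the letters in the window only.

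Between the 2 pools, 7 of the 9 secreted inhibitors differed beyond counting error, and so did the ligands Wnt5a and Wnt3a, while Wnt7b, Wls, Fzd3 and Ctnnb1 did not pass that test. By a two-sided exact binomial test on counts with Benjamini-Hochberg adjustment, which allows for counting error only, 17 of the 57 members differed (29.8%), beside 20.0% of all 19209 genes. Of these, 7 were higher in replicate 2, as were 10.5% of all genes, and 10 were lower, as were 9.49% of all genes. They were 7 of 9 inhibitors, 5 of 19 ligands, 3 of 12 receptors, 2 of 8 effectors and none of the 7 enhancers or 2 release genes. Another two-sided form of the same test, which sums all outcomes no more likely than the one seen, added Wnt5b and Rspo2 to make 19 members, beside 20.4% of all genes.

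With the spread between libraries added, by the edgeR exact test with a common dispersion (a coefficient of variation of 9.02%), 0 of the 57 members passed after Benjamini-Hochberg adjustment, beside 1.57% of all genes. At an unadjusted p under 0.05 edgeR gave 8 of the 57, beside 6.69% of all genes. These 8, some of them named after their values were seen, were Wnt2b, Wnt3a, Wnt4, Wnt8a, Dkk1 and Notum, lower in replicate 2, and Frzb and Dkk2, higher. Each pool is 1 library, and the dispersion comes from the same 2 libraries whose difference is tested, so the edgeR calls given here and below describe these libraries only.

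Among ligands, the counts of Wnt3a were 329 in replicate 1 and 187 in replicate 2, a log2 ratio of -0.71 with a 95% exact interval of -0.98 to -0.45 (exact binomial adjusted p = 1.28e-06). The counts of Wnt4 were 317 and 214, a ratio of -0.46, and of Wnt2b 97 and 46, a ratio of -0.97. Wnt8a had 10 and 0 counts, and the 95% exact interval of its log2 ratio reached up to -1.06. Wnt5a went the other way with 3580 and 4131 counts, a log2 ratio of 0.31 and an interval of 0.24 to 0.37 (exact binomial adjusted p = 9.14e-19). For Wnt7b the ratio was -0.04 with an interval of -0.11 to 0.03, a difference within counting error.

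The inhibitors moved in both directions. Dkk2 had 628 and 847 counts, a log2 ratio of 0.53 with an interval of 0.38 to 0.68, and Frzb 1098 and 1374 counts, a ratio of 0.42. Sfrp2 was higher by 0.11. Lower in replicate 2 were Notum by a ratio of -0.85, Dkk1 by -0.72, Dkk3 by -0.28 and Sfrp1 by -0.25. Wif1 and Sfrp5 were the inhibitors that did not pass, at 0.01 and 0.36. Of the receptors, Fzd4 (0.42) and Fzd8 (0.33) were higher and Fzd10 (-0.34) lower. Of the effectors, Apc was higher by 0.08 and Axin2 lower with a ratio of -0.21.

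**Figure D3:**
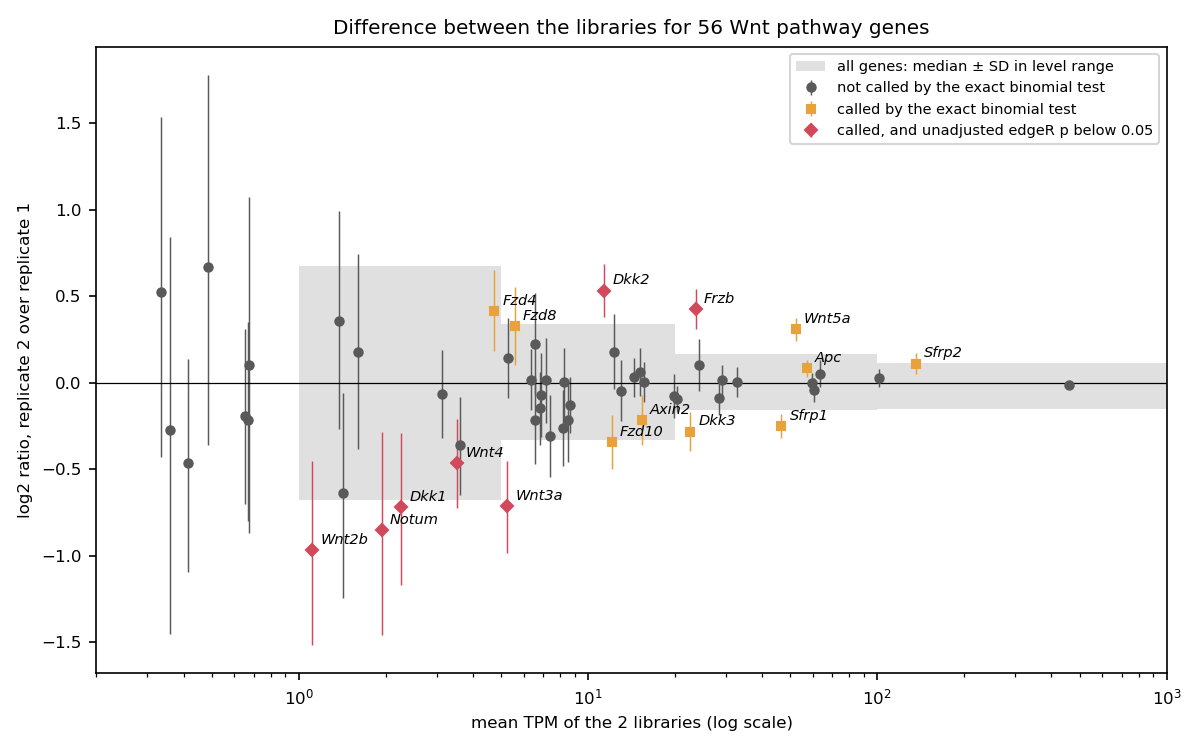
Log2 ratio of replicate 2 over replicate 1 against mean TPM (log axis) for 56 members, with 95% exact intervals that cover counting error; the grey band is the median ± SD of all genes tested at that level. Wnt8a, at 0 counts in replicate 2, is left out. Of the members at 1 TPM or more, 39 lie within the band of their level and 10 outside it: Wnt2b, Wnt3a, Wnt5a, Fzd10, Sfrp1, Frzb, Dkk1, Dkk2, Dkk3 and Notum. The share of all genes outside the band was not computed, so a place outside it does not mark a member as unusual.

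The pools differed in marker genes of several tissues beside these members. The summed level of 8 skeletal muscle markers was 54.0 TPM in replicate 1 and 253 TPM in replicate 2, and 8 of 8 passed the edgeR exact test after adjustment, as a difference between 2 single libraries. Cartilage markers summed to 516 and 585 TPM, with 3 of 6 higher by that test, and mesenchyme and meninges markers to 1494 and 1909 TPM, with 0 of 10 passing it (2 at an unadjusted edgeR p under 0.05, and 8 by the exact binomial test). Epithelium and otic markers summed to 360 and 170 TPM, of which Oc90 alone gave 247 and 107 TPM. By edgeR after adjustment, 3 of 6 were lower in replicate 2. The exact binomial test called 5 lower and 1, Trp63, higher (2.51 and 3.42 TPM). Roof plate and rhombic lip markers summed to 178 and 192 TPM, with 2 of 8, Lmx1a and Gdf6, lower in replicate 2 by edgeR after adjustment. The other 6 did not pass edgeR, among them Msx1 at 78.0 and 95.4 TPM, which the exact binomial test called higher, and Msx2 at 49.1 and 52.7 TPM. Isthmus and midbrain markers, from the border where Wnt1 is known, summed to 70.2 and 87.1 TPM, and choroid plexus markers to 372 and 442 TPM. Otx2 is in both lists. The exact binomial test called 3 of 7 and 3 of 6 of them higher in replicate 2. By edgeR, 0 passed in either list after adjustment and 1 in each at an unadjusted p under 0.05. Blood markers summed to 12901 and 10091 TPM, with 4 of 5 lower by the exact binomial test and 0 by edgeR after adjustment (2 at an unadjusted p under 0.05). Of the hindbrain markers, 8 of 11 were higher and 1 lower by the exact binomial test, with 0 by edgeR after adjustment and 4 at an unadjusted p under 0.05. Neural progenitor markers summed to 2759 and 2538 TPM, with 3 of 7 lower by the exact binomial test. Neuron markers summed to 2323 and 2422 TPM, with 3 of 6 higher and 2 lower. Endothelium markers summed to 114 and 123 TPM, with 1 of 6 higher. In these last 3 lists edgeR gave 0 at an unadjusted p under 0.05. Over all genes, the exact binomial test called 20.0%, and edgeR 1.57% after adjustment and 6.69% at an unadjusted p under 0.05. No marker of these lists was at 0 in either library. The part of these tissues in the differences of Wnt genes was not tested.

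The other genes of the pathway were taken from lists by function, and 68 of 74, of which 6 are also members, were detected. All 15 genes of the cytoplasmic relay and destruction complex were detected, led by the kinases Csnk1a1 at 239 and 243 TPM and Csnk1e at 224 and 226 TPM, with Apc2 next by the mean at 137 and 153 TPM (Csnk1d, at 139.6 and 137.9 TPM, was above it in replicate 1) and Amer1, at 10.1 and 9.62 TPM, the lowest. The exact binomial test called 4 of the 15 (3 higher and 1 lower in replicate 2), beside 20.0% of all genes, and edgeR 0 after adjustment. The tests use counts, and the lower gene was Csnk1a1, at 14935 and 13028 counts (a log2 ratio of -0.10), although its TPM was slightly higher in replicate 2. All 10 nuclear partners were detected, from Hbp1 at 82.0 and 81.8 TPM through the co-repressor Tle1 at 60.2 TPM in both libraries and Cby1 at 56.1 and 52.2 TPM to Bcl9l at 6.01 and 6.78 TPM, and neither test called any. At an unadjusted p under 0.05 edgeR gave 0 of the 15 and 0 of the 10, beside 6.69% of all genes.

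Of 21 other inhibitors and feedback genes, 17 were detected. Ctnnbip1, which keeps beta-catenin from the Tcf factors, led at 69.4 and 62.2 TPM, with Nkd1 at 46.7 and 45.6 TPM and Dact1 at 41.2 and 42.8 TPM, both of which act on Dishevelled, and Dkk4 was the lowest at 0.09 and 0.05 TPM. The exact binomial test called 6 of the 20 tested, 2 higher and 4 lower in replicate 2, beside 20.0% of all genes. At an unadjusted p under 0.05 edgeR gave 4, beside 6.69% of all genes: Kremen2, higher, and Rnf43, Apcdd1 and Trabd2b, lower. Kremen2, a receptor that works with Dickkopf proteins, measured 2.40 and 4.64 TPM (92 and 164 counts), a log2 ratio of 0.93. It was the single gene of the 72 tested in these lists with an adjusted edgeR p under 0.05, beside 1.57% of all genes. The comparison is again between 2 single libraries that also gave the dispersion.

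The 13 receptors and planar polarity genes of the branch without beta-catenin were all detected, with Ptk7 at 65.3 and 65.5 TPM, Celsr2 at 61.7 and 51.4 TPM, Vangl2 at 48.8 and 54.4 TPM and, lowest, Celsr1 at 3.40 and 2.72 TPM. The exact binomial test called 6 of them, 2 higher and 4 lower, beside 20.0% of all genes. By edgeR, 0 passed after adjustment and 0 at an unadjusted p under 0.05. Vangl2 was among the lower by counts, at 4484 and 3890 (a log2 ratio of -0.10), although its TPM was higher in replicate 2. Of the co-receptors of Wnt7 and Norrin, Tspan12 measured 44.3 and 44.9 TPM. Reck, which presents Wnt7 ligands, measured 16.4 and 17.7 TPM, and Adgra2, the partner of Reck, 4.73 and 4.24 TPM. Ndp, the gene of the ligand Norrin, was listed with them and measured 6.25 and 3.79 TPM. Ndp was the 1 of these 4 called by the exact binomial test and not by edgeR after adjustment. Among 12 target genes, some of which are members, 10 were detected. The exact binomial test called 5 of the 11 tested, 1 higher and 4 lower in replicate 2, beside 20.0% of all genes. By edgeR, 0 passed after adjustment and 3 at an unadjusted p under 0.05, beside 6.69% of all genes for the latter. The highest by the mean were the cell cycle gene Ccnd1 at 101.9 and 97.2 TPM, Nkd1, and Myc at 29.0 and 30.9 TPM, with Lef1 level with Myc in replicate 1, and Cdx2, a gene of the posterior body, was at 0 counts in both libraries.

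**Figure D4:**
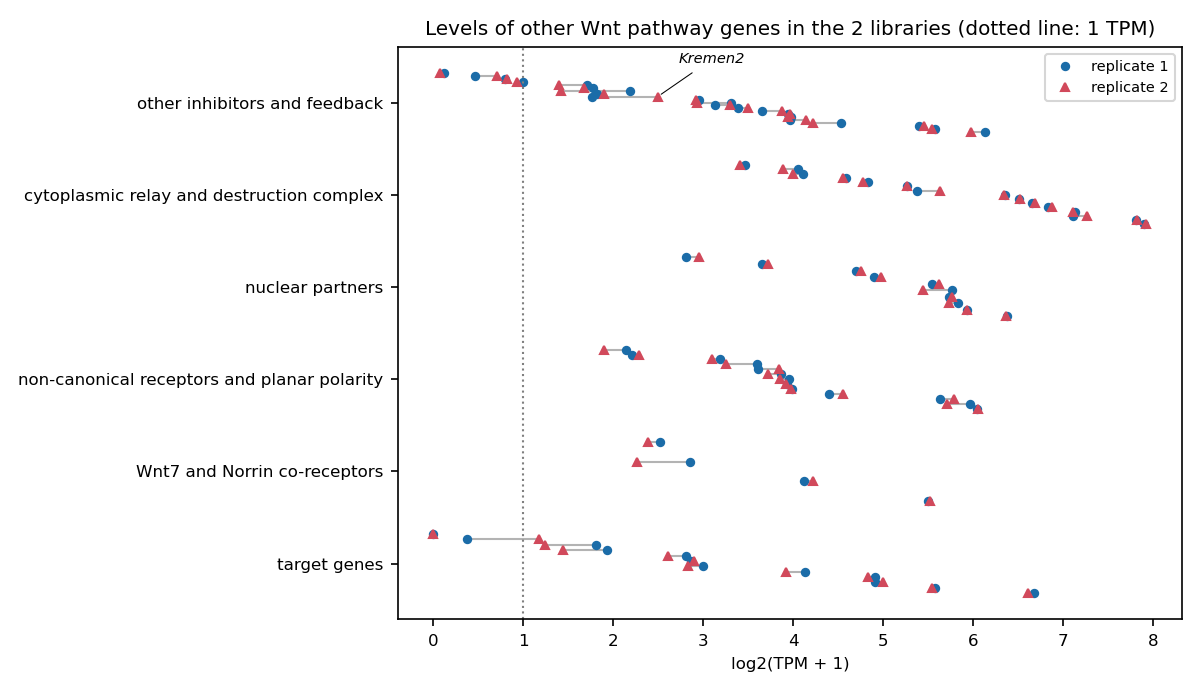
Levels of the genes of 6 other pathway lists on the log2(TPM + 1) axis, replicate 1 as circles and replicate 2 as triangles, with the dotted line at 1 TPM. Kremen2, named in the plot, measured 2.40 TPM in replicate 1 and 4.64 TPM in replicate 2.

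Exons of 10 members overlap those of another gene, which matters where strand is not known. The largest such neighbours were Ulk4, with 374 and 299 counts beside 28650 and 26486 for Ctnnb1, and Gm2670, with 127 and 168 counts beside 3580 and 4131 for Wnt5a. For these genes a part of the counts may belong to the partner on the other strand.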

How the data were processed

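RNA was measured in 2 libraries of 1 group. Per the file headers, the authors deposited expected counts, TPM, FPKM and posterior mean TPM per gene, and the percent of each gene in each transcript. Per the file notes, reads were assigned on mm10 with GENCODE M4. Aligner, quantifier and strandedness: not given in the sources used here. Names, coordinates and transcript types came from GENCODE M21, which uses that assembly (42462 of 43346 Ensembl genes matched), and promoters from RefSeq. Numbered entries that name no gene, which held 0.000107% and 0.000114% of counts, stayed out.

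The expected counts, rounded to integers, were tested for genes summing to 10 or more, after TMM scaling (edgeR 4.0.16 in R 4.3.3). An exact binomial test, two-sided by doubling the smaller tail, came from scipy 1.17.1, and the edgeR exact test used a common dispersion estimated from the same 2 libraries. Adjustment ran over all genes tested, at 0.05. Calls follow counts, and for some genes TPM, which also depends on length, went the other way. The form of the two-sided test had not been specified: summing outcomes no more likely than the one seen was computed first and gave 3921 genes and 19 members, and doubling, which gave 3846 genes and 17 members, was then taken because an earlier treatment of these data had used it. Log2 ratios add 0.5 counts, intervals are 95% Clopper-Pearson, and the limit of a count of 0 is 3 counts. Both cover counting error only: no molecular identifiers are named, and amplified fragments are not independent. Scripts were tested on simulated data.

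Members and gene lists were chosen with earlier results of these data known. Values are printed for members at a mean of 5 TPM or more, the 2 lowest of each class and members called by edgeR; of each pathway list, the 3 highest, the lowest and any called by edgeR. Alternatives covered scaling (DESeq2 1.42.0 size factors, total counts), count filters, detection level, rescaled or posterior mean TPM, FPKM, pseudocount, transcript share measure and leaving out each library. Calls of single forebrain markers are not reported here.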

Additional observations from a re-analysis of the deposited data

How the results depend on the processing

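No paired analysis was possible because there is 1 group. The edgeR exact test with a common dispersion cut the calls to 301 genes and 0 members; other scalings and filters gave 3572 to 3842 genes and 17 or 18 members by the exact binomial test, and 229 to 301 genes and 0 members by edgeR. The other two-sided form gave 3921 genes and 19 members and was added after seeing the data. Class medians in FPKM, another unit, were 2.68 for ligands, 37.3 for release genes, 7.47 for receptors, 6.72 for inhibitors, 3.61 for enhancers and 14.3 for effectors. Rescaling TPM without spike-ins gave 69.7 for release genes, 13.9 for receptors, 6.73 for enhancers and 26.7 for effectors, and posterior mean TPM gave 6.70 for enhancers. Keeping members at 1 TPM or more raised the medians to 7.18 for ligands and 6.81 for enhancers, by construction. A pseudocount of 0.1 moved the log2 difference of ligands from receptors to -1.46 and from effectors to -2.38. The receptor minus inhibitor difference was -0.18 without replicate 1 and 0.49 without replicate 2, so its direction rests on the library. Detected members ranged from 37 at 5 TPM to 52 at 0.5 TPM. The Lef1 order held by posterior mean share and by counts. At 31633169 and 29766460 counts, members under about 1 TPM rest on few fragments.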
